A study of Saccharomyces cerevisiae with 16 samples.

Results

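A set of 10 genes that carry sulfur into methionine was followed through 16 strand-specific total RNA-seq libraries of the budding yeast Saccharomyces cerevisiae. The 10 were chosen by name, as enzymes of sulfate assimilation, methionine synthesis and S-adenosylmethionine synthesis and 1 regulator of them: MET3, MET14, MET16, MET5, MET10, MET2, MET6, SAM1, SAM2 and MET28. All 10 were among the 5899 protein-coding genes measured and the 11599 features tested. Every strain was MATa his3Δ1 leu2Δ0 met15Δ0 ura3Δ0, so wild type and both mutants alike lacked MET15, the gene of the enzyme that joins sulfide to the carbon backbone of homocysteine. The wild type carried no further deletion, and the mutants carried upf1Δ::kanMX4 or xrn1Δ::kanMX4, each as 1 strain. UPF1 encodes an RNA helicase that nonsense-mediated decay requires, and XRN1 the cytoplasmic 5′-3′ exonuclease that degrades decapped RNA. Cells in mid-log growth in CSM with glucose either stayed in glucose for 16 min or spent that time in CSM with glycerol and ethanol in its place, here called starvation. Wild-type cultures then received cycloheximide, which stops translation elongation, at 100 µg/ml, or DMSO, and no solvent is named for the mutants. The time in the drug is not given in the sources used here. These 8 groups held 2 libraries each, which the design text calls biological replicates. Whether the medium contained methionine is not given in the sources used here.

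In yeast, sulfate is activated by ATP sulfurylase (Met3), phosphorylated by adenylylsulfate kinase (Met14), reduced to sulfite by Met16 and then to sulfide by sulfite reductase, which is built of Met5 and Met10. Sulfide enters O-acetylhomoserine, the product of Met2, to give homocysteine, which Met6 methylates to methionine, and Sam1 and Sam2 turn methionine into S-adenosylmethionine. The pathway's genes are known to be transcribed through the activator Met4, which reaches DNA through Cbf1, Met31 and Met32, with Met28 as a further cofactor, and which is held inactive by Met30 when sulfur compounds are plentiful.

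The letters those factors bind are shown first, because they are the known link between these genes and their activator and 7 of the 10 genes carry them near the start codon. The 300 bases before each start codon were read from the R64 genome and searched on both strands for CACGTG, the core bound by Cbf1, for the longer TCACGTG that contains it, for AACTGTGG, the core bound by Met31 and Met32, and for AAACTGTGG, which contains that core. CACGTG lay in 4 members (MET14, MET16, MET10 and MET28) and in 3.57% of all 6001 windows of that length. TCACGTG lay in the same 4 members and in 2.58% of windows. AAACTGTGG lay in MET3, MET28, SAM1 and SAM2 and in 0.533% of windows, and AACTGTGG in the same 4 members and in 1.03%. MET28 held both kinds, and MET5, MET2 and MET6 held neither, which says only that these letters are not in those windows. The stretches that hold the matches follow, 5′ to 3′ on the strand of the gene, with the matches in capitals (CCACAGTT is AACTGTGG read on the other strand).
MET3, chrX:455966-456014, plus strand: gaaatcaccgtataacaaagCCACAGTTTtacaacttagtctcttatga
MET14, chrXI:439587-439634, minus strand: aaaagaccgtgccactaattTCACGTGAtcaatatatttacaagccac
MET16, chrXVI:877785-877831, minus strand: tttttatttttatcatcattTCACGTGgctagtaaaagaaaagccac
MET10, chrVI:213043-213107, plus strand: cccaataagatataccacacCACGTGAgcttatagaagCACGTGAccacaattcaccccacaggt
MET28, chrIX:384244-384419, minus strand: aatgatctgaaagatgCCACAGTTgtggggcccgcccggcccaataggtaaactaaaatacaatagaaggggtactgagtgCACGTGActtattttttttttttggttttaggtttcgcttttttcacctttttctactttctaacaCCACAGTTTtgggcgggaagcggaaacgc
SAM1, chrXII:514965-515013, plus strand: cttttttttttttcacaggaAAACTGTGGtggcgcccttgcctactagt
SAM2, chrIV:1454736-1454764, minus strand: AAACTGTGGcgtttttccaccgatgggtc
In the MET10 window 2 CACGTG matches began 249 and 231 bases before the start codon. In MET14 the match began 228 bases before it and in MET16 178 bases before it. The SAM2 match began at the first base of its window, 300 bases before the start codon. A match is a description of the letters and not a measured binding site.

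**Figure D1:**
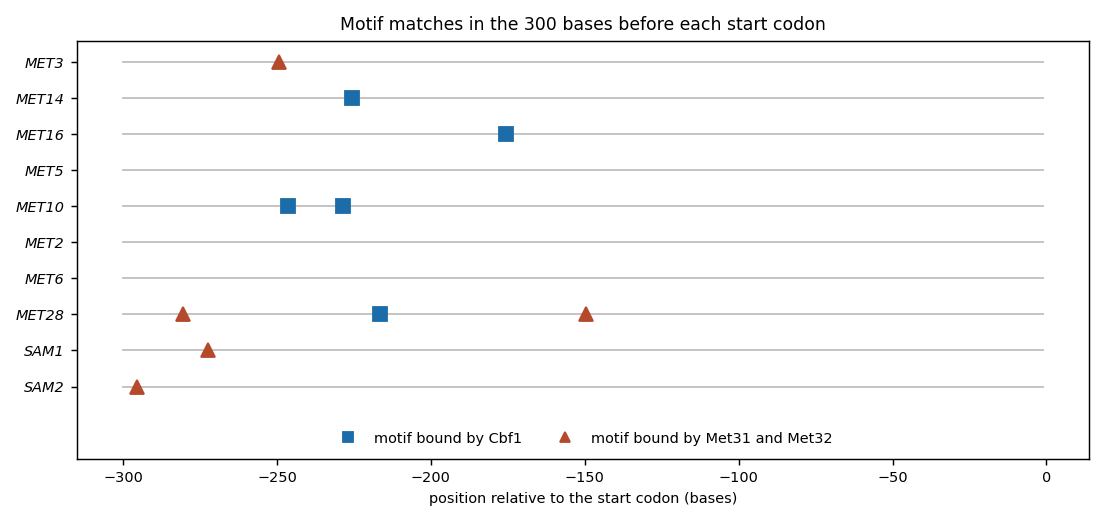
Matches to the Cbf1 motif (CACGTG, squares) and the Met31 and Met32 motif (AACTGTGG, triangles) in the window before each of the 10 genes; the x axis is the position in bases relative to the start codon. MET28 is the gene with both kinds, and the lines of MET5, MET2 and MET6 are empty.

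The coding sequences lie on 9 chromosomes in R64, each as 1 uninterrupted segment, and none overlaps another annotated gene. MET3 (YJR010W) spans chrX:456239-457774 on the plus strand, MET14 (YKL001C) chrXI:438777-439385 on the minus strand, MET16 (YPR167C) chrXVI:876847-877632 on the minus strand, MET5 (YJR137C) chrX:678957-683285 on the minus strand and MET10 (YFR030W) chrVI:213312-216419 on the plus strand. MET2 (YNL277W) spans chrXIV:117349-118809 on the plus strand, MET6 (YER091C) chrV:339864-342167 on the minus strand, SAM1 (YLR180W) chrXII:515262-516410 on the plus strand, SAM2 (YDR502C) chrIV:1453310-1454464 on the minus strand and MET28 (YIR017C) chrIX:383556-384119 on the minus strand. SAM1 and SAM2 are paralogues with 82.8% identical coding bases over 1155 aligned columns and a longest shared run of 59 bases. Of the 1100 stretches of 50 bases in the SAM1 coding sequence, 20 (1.82%) also occur in SAM2. How reads that match both genes were counted is not given in the sources used here, so the split between these 2 genes is uncertain.

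All values are reads per nucleotide of a feature, as deposited, and so are per length. In every library the spike-in RNAs, added in a fixed amount to 1 µg of total RNA, summed to between 305 and 317. Levels are therefore relative to total RNA and not to cells, and a change in total RNA per cell cannot be seen. Reads roughly estimated from the steps between values, most of them not whole numbers, ranged from 93.6 for MET28 to 150828 for MET6 in 1 library. MET15 was listed at 0 in all 16 libraries, UPF1 lay at 0.00930 to 0.0152 in upf1 libraries, and XRN1 lay at 0.0693 to 0.0858 in xrn1 libraries. The median protein-coding gene moved strongly between groups, from 0.223 and 0.176 in untreated wild type, in glucose and starvation in this order, to 1.02 and 0.447 under cycloheximide, 0.237 and 0.161 in upf1 and 1.05 and 1.06 in xrn1. Each change below is therefore given as deposited and then after scaling to protein-coding genes, which shifted the median over all features. That shift was -1.85 and -1.06 for the drug in glucose and in starvation, -1.88 and -2.21 for xrn1 in the same order, and 0.29 for wild-type starvation. The columns of the cycloheximide libraries carry another header prefix (D940) than all other columns (D1277), whose meaning is not given in the sources used here, so the drug and the prefix cannot be told apart.

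In wild-type cells in glucose the last steps of the pathway were the most abundant. MET6, the methionine synthase, lay at 17.2 and 18.0 reads per nucleotide in the 2 libraries, SAM1 at 6.67 and 6.86, and SAM2 at 4.34 and 4.59. The assimilation enzymes stood far lower and close together, except MET16. MET14 lay at 0.940 and 1.01, MET10 at 0.797 and 0.840, MET5 at 0.792 and 0.808, and MET3 at 0.789 and 0.785. The ranges of MET10 and MET5, the subunits of sulfite reductase, overlapped, and those of the other neighbours in this order did not, although MET5 and MET3 lay close. At the low end MET2 lay at 0.242 and 0.256, MET16 at 0.119 and 0.117, and MET28, the regulator, at 0.0845 and 0.0831. Relative to the median protein-coding gene MET6 stood at 79.0 times its level, MET14 at 4.38 times and MET28 at 0.376 times. MET6, SAM1 and SAM2 kept the first 3 places in all 8 groups. The span from the highest to the lowest member was 210-fold in wild type in glucose, 316-fold in upf1 in glucose, 69.2-fold in xrn1 in glucose and 39.6-fold in starved wild type with cycloheximide.

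**Figure D2:**
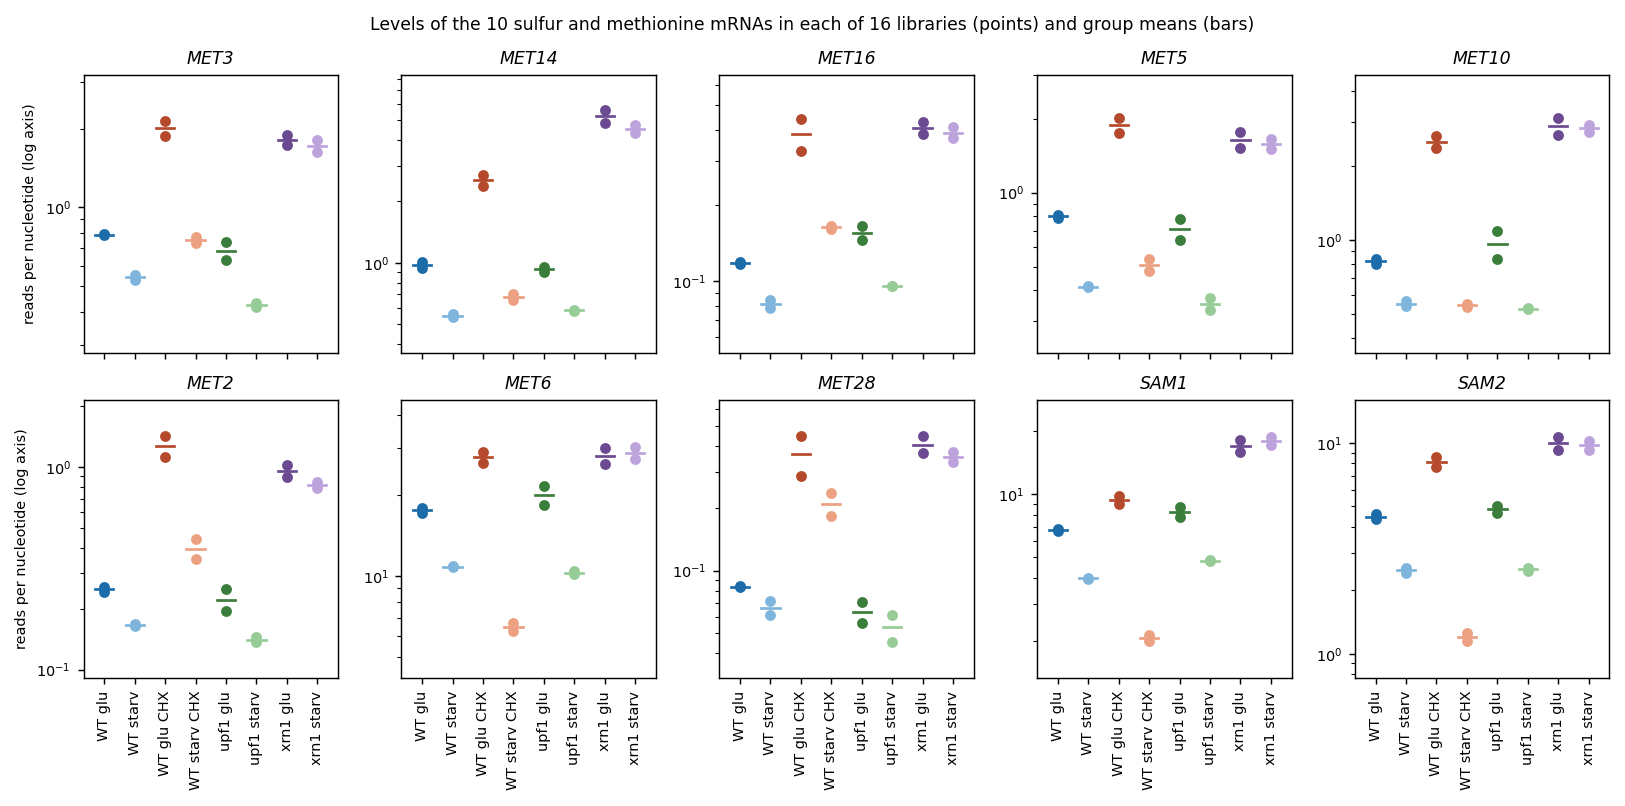
Level of each of the 10 mRNAs (reads per nucleotide, log axis, a separate range in each panel) in 16 libraries (points) with the mean of each group (bars); glu is glucose, starv starvation and CHX cycloheximide. The xrn1 libraries and the cycloheximide libraries in glucose stand above the wild-type libraries in glucose for every gene, while the starved libraries with cycloheximide lie below those with the drug in glucose, and for MET6, SAM1 and SAM2 below all other groups.

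The first comparison asked what 16 min without glucose did in wild type. Of the 10 mRNAs 9 fell, by 0.52 to 0.94 on the log2 scale, while 33.5% of all features passed downward. MET5 fell most among the assimilation enzymes, from 0.792 and 0.808 to 0.412 and 0.417 reads per nucleotide (log2 change -0.94 ± 0.12 SE, n = 2 and 2, limma adjusted p = 3.68e-05). MET14 went from 0.940 and 1.01 to 0.543 and 0.559 (-0.82 ± 0.093, limma adjusted p = 1.44e-05). MET3 stood at 0.527 and 0.555 in starvation, MET16 at 0.0781 and 0.0847 and MET10 at 0.565 and 0.541. In each of these 5 genes both starved libraries lay below both libraries in glucose.
Further down the pathway the falls were of like size. MET2, whose product supplies the carbon backbone, stood at 0.164 and 0.168 in starvation, and MET6 at 10.8 and 10.9 (-0.70 ± 0.094, limma adjusted p = 5.75e-05). SAM1 stood at 4.01 and 3.96, and SAM2 at 2.42 and 2.56 (-0.84 ± 0.093, limma adjusted p = 1.14e-05). MET28 stood at 0.0716 and 0.0609 and did not pass (-0.33 ± 0.22, limma adjusted p = 0.259).
The median log2 change of the 10 was -0.64, beside -0.42 over all protein-coding genes. Protein-coding genes were also split into deciles by level, the mean over all 16 libraries. A gene's own rise in the xrn1 or drug libraries thus takes part in setting its decile. The highest, with MET6, SAM1 (-0.76) and SAM2, had a median change of -0.65. The decile of MET14 and MET10 (-0.56) stood at -0.51, and that of MET3 (-0.54) and MET5 at -0.45. That of MET2 (-0.58) stood at -0.40, and that of MET16 (-0.52) and MET28 at -0.37. After scaling to protein-coding genes 8 of the 10 fell, beside 23.6% of features, with MET5 at -0.58, SAM2 at -0.48 and MET14 at -0.46, and MET16 (-0.18) and MET28 (0.02) did not pass. After scaling to snoRNAs 0 of the 10 passed in limma, beside 5.38% of features downward, and 3 had an unadjusted p under 0.05. The fall of MET2 did not pass without the second wild-type library in glucose (-0.54, limma adjusted p = 0.0510), nor that of MET16 without the first starved library (-0.47, limma adjusted p = 0.0589).

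The next comparison asked what cycloheximide did in glucose. All 10 mRNAs rose as deposited, as did 91.3% of all features, and all 10 rose after scaling to snoRNAs, as did 93.6%. The low members rose most: MET2 reached 1.43 and 1.12 reads per nucleotide (log2 change 2.33 ± 0.15, limma adjusted p = 6.71e-09), MET28 0.444 and 0.285 (2.04 ± 0.22) and MET16 0.441 and 0.328 (1.65 ± 0.14). The other assimilation enzymes followed, with MET10 at 2.62 and 2.36 (1.60 ± 0.12), MET14 at 2.68 and 2.39 (1.37 ± 0.093), MET3 at 2.14 and 1.88 (1.35 ± 0.10) and MET5 at 2.02 and 1.74 (1.23 ± 0.12). Both drug libraries lay above both mock libraries in each of these 7 genes. The abundant mRNAs rose least, with SAM2 at 8.60 and 7.66 (0.86 ± 0.093), MET6 at 29.0 and 26.4 (0.65 ± 0.094) and SAM1 at 9.74 and 8.95 (0.46 ± 0.087, limma adjusted p = 0.000198). SAM1 stood at percentile 0.963 and MET6 at percentile 1.63 of the changes of all protein-coding genes.
The median protein-coding gene changed by 2.05, so 9 of the 10 rose less than it did. On the protein-coding scale MET2 alone of the 10 passed upward (0.31), where 32.0% of features did, and 8 passed downward, where 25.2% did. SAM1 was then at -1.57, MET6 at -1.38 and SAM2 at -1.17, and MET28 did not pass (0.05). Abundant mRNAs as a class rose less: among the 582 protein-coding genes of the highest decile by level, which holds MET6, SAM1 and SAM2, the median change was 1.19, beside 2.30 in the decile that holds MET16 and MET28. SAM1, MET6 and SAM2 thus stood at 0.86 or less where their decile stood at 1.19, and MET3 and MET5 stood at 1.35 and 1.23 where theirs stood at 1.85. MET16 at 1.65 and MET28 at 2.04 also lay below the 2.30 of their decile. MET14 stood at 1.37 and MET10 at 1.60 where theirs stood at 1.56, and MET2 at 2.33 where its decile stood at 2.22.

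In starved cells the members went different ways with the drug. As deposited, 6 of the 10 mRNAs were higher with cycloheximide, beside 65.8% of features, and 3 were lower, beside 8.32% of features. The counts were the same after scaling to snoRNAs, beside 68.5% and 5.45%. The 3 that fell were the last steps. MET6 went from 10.8 and 10.9 to 6.71 and 6.25 (log2 change -0.74 ± 0.094, limma adjusted p = 8.72e-06), SAM1 from 4.01 and 3.96 to 2.00 and 2.14 (-0.94 ± 0.087, limma adjusted p = 4.43e-07), and SAM2 from 2.42 and 2.56 to 1.25 and 1.15 (-1.05 ± 0.093, limma adjusted p = 3.17e-07). For these 3 genes both drug libraries lay below both mock libraries, and in their decile of genes by level the median change was 0.05. MET28 rose to 0.236 and 0.183 (1.60 ± 0.22), MET2 to 0.440 and 0.354 (1.23 ± 0.15) and MET16 to 0.162 and 0.166 (0.98 ± 0.14). The remaining assimilation enzymes lay between these groups. MET3 reached 0.769 and 0.732 (0.47 ± 0.10), MET14 0.703 and 0.659 (0.30 ± 0.093) and MET5 0.537 and 0.481 (0.29 ± 0.12), while MET10 stood at 0.536 and 0.551 beside 0.565 and 0.541 without the drug (-0.02 ± 0.12, limma adjusted p = 0.863). The rises of MET14 and MET5 did not pass when single libraries were left out, in 2 and 3 of 4 cases. With scaling to protein-coding genes, whose median change was 1.31, MET28 passed upward (0.39), beside 31.1% of features, and 8 passed downward, beside 31.9%, led by SAM2 at -2.30, SAM1 at -2.20 and MET6 at -2.0. Of the 4 members with AAACTGTGG printed above, SAM1 and SAM2 fell as deposited and MET3 and MET28 rose. On the protein-coding scale MET3 fell too (-0.78). Whether the motif goes with the direction of change was not tested.

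Seen the other way, starvation lowered all 10 mRNAs in cells with cycloheximide, where 73.7% of features fell. SAM2 fell 6.75-fold (log2 change -2.75 ± 0.093, limma adjusted p = 2.09e-11), MET10 4.55-fold, SAM1 4.51-fold and MET6 4.27-fold. MET14 and MET5 fell 3.70-fold and 3.67-fold, MET2 3.19-fold, MET3 2.67-fold, MET16 2.29-fold and MET28 1.70-fold. The fall of MET28 did not pass without the first cycloheximide library in glucose (-0.45, limma adjusted p = 0.0920) or the second in starvation (-0.58, limma adjusted p = 0.0592). Against the fall without the drug, the fall with it was larger for 9 of the 10 in the interaction, where 61.0% of features passed in that direction. The difference was -1.91 ± 0.13 for SAM2, -1.62 ± 0.16 for MET10, -1.41 ± 0.12 for SAM1 and -1.39 ± 0.13 for MET6, and for MET28 it did not pass (-0.44 ± 0.31, limma adjusted p = 0.229). These comparisons share libraries.
After scaling to protein-coding genes, 8 of the 10 fell in starvation under the drug, beside 34.3% of features, and MET28 rose (0.36), beside 30.9%. SAM2 was at -1.61, MET10 at -1.05, SAM1 at -1.03 and MET6 at -0.95, while MET16 did not pass (-0.07). The interaction then passed for 6, beside 24.3% of features: SAM2 (-1.13), MET10 (-0.84), SAM1 (-0.63), MET6 (-0.61), MET2 (-0.31) and MET14 (-0.29).

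**Figure D3:**
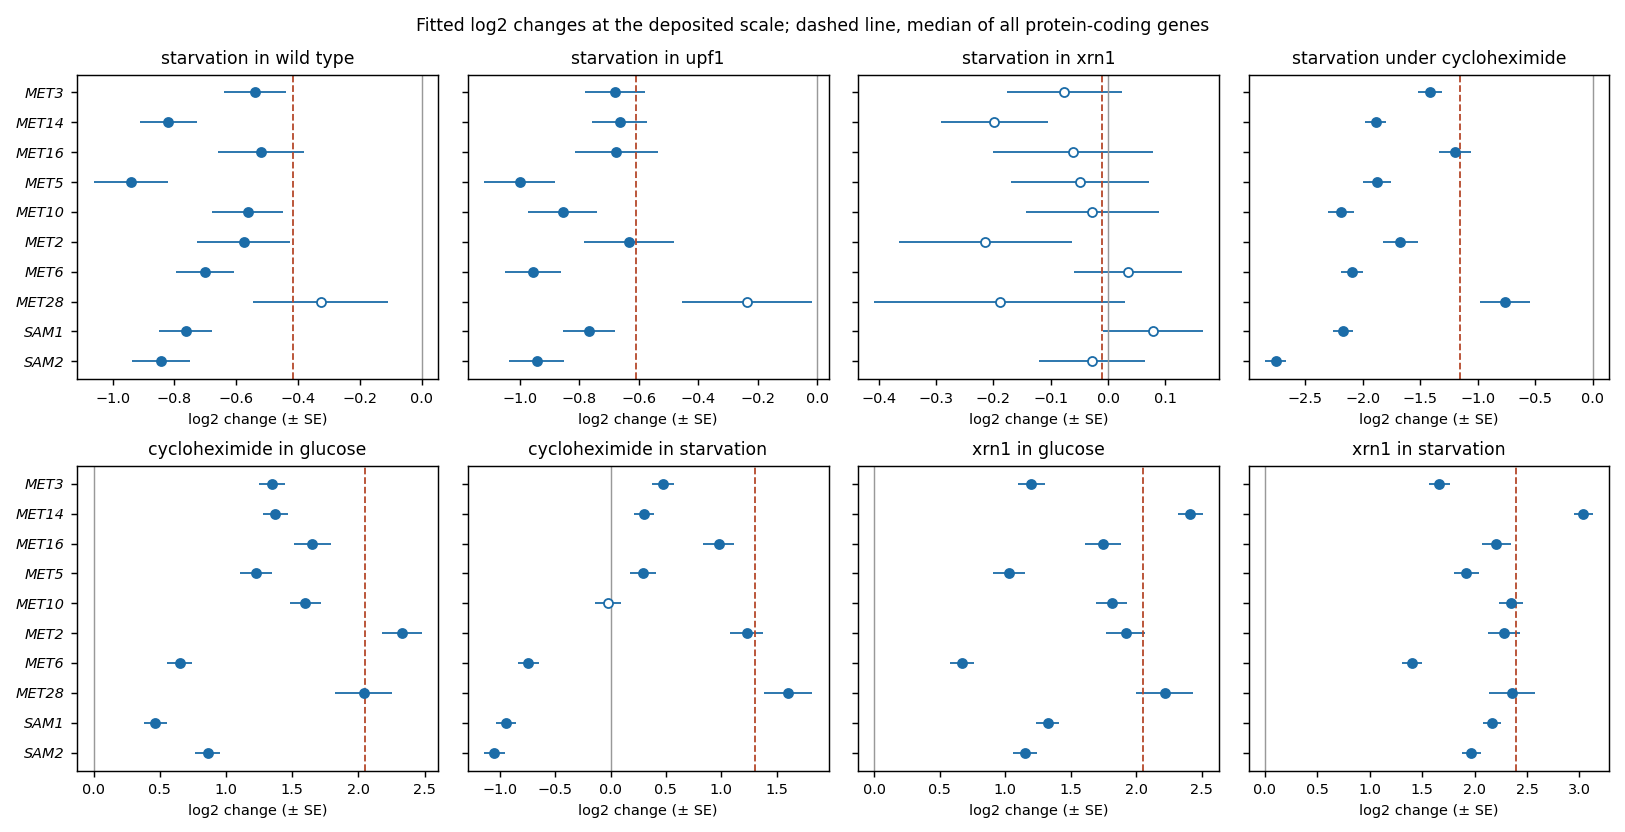
Fitted log2 changes of the 10 mRNAs as deposited (points, bars ± SE, each panel with its own axis) in 8 comparisons; filled points passed at an adjusted p under 0.05, the grey line is 0 and the dashed line is the median of all protein-coding genes. MET6, SAM1 and SAM2 lie far to the left of the dashed line in both cycloheximide panels, MET14 lies to its right in both xrn1 panels, and no point is filled for starvation in xrn1.

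Loss of Xrn1 raised all 10 mRNAs in glucose, as it raised 90.6% of all features, and all 10 rose after scaling to snoRNAs, as did 90.5%. MET14 rose most, to 5.59 and 4.87 reads per nucleotide (5.33-fold, log2 change 2.42 ± 0.093, limma adjusted p = 9.60e-11). MET28 reached 0.444 and 0.367 (2.22 ± 0.22), MET2 1.02 and 0.890 (1.92 ± 0.15) and MET10 3.12 and 2.66 (1.81 ± 0.12). MET16 reached 0.428 and 0.385 (1.75 ± 0.14), SAM1 18.2 and 15.8 (1.32 ± 0.087) and MET3 1.90 and 1.73 (1.20 ± 0.10). The smallest rises were those of SAM2, at 10.7 and 9.24 (1.15 ± 0.093), MET5, at 1.76 and 1.52 (1.03 ± 0.12), and MET6, at 29.9 and 26.2 (0.67 ± 0.094). Both xrn1 libraries lay above both wild-type libraries for all 10.
The median protein-coding gene rose by 2.06. On the protein-coding scale MET14 alone of the 10 passed upward (0.35), beside 37.5% of features, and 7 passed downward, beside 25.3%, with MET6 at -1.40, MET5 at -1.03, SAM2 at -0.91, MET3 at -0.86 and SAM1 at -0.74. In the decile of genes by level that holds both MET14 and MET10 the median rise was 1.70, and in that of MET3 and MET5 it was 2.06. In the highest decile it was 1.17, with SAM1 at 1.32, SAM2 at 1.15 and MET6 at 0.67. The 4 members with CACGTG printed above all rose as deposited and after scaling to snoRNAs. On the protein-coding scale MET14 alone of them passed upward, MET16 (-0.28) and MET10 (-0.25) passed downward and MET28 did not pass (0.20). Whether the motif goes with the change was not tested.

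In starved cells the gap between xrn1 and wild type was wider as deposited. All 10 were higher in starved xrn1, beside 93.1% of features, and all 10 after scaling to snoRNAs, beside 88.9%. On the snoRNA scale the gap was wider for some members, as for MET5 (1.45, beside 1.11 in glucose). It was narrower for others, as for MET28 (1.90, beside 2.29 in glucose). As deposited the differences ran from 1.41 ± 0.094 for MET6 to 3.04 ± 0.093 for MET14 (8.20-fold, limma adjusted p = 1.39e-11). MET14 stood at 4.77 and 4.34 in starved xrn1, beside 0.543 and 0.559 in starved wild type. SAM1 stood at 18.7 and 17.1 (2.17 ± 0.087) and MET6 at 30.2 and 27.2. With scaling to protein-coding genes, whose median change was 2.39, MET14 again was the member that passed upward (0.60), beside 34.5% of features, and 5 passed downward, beside 25.8%: MET6 (-1.03), MET3 (-0.77), MET5 (-0.50), SAM2 (-0.47) and SAM1 (-0.27).
Within xrn1 cells 0 of the 10 passed for starvation in limma, with 0 at an unadjusted p under 0.05, where 2.8% of features passed upward and 0.233% downward. Their log2 changes ran from -0.21 ± 0.15 for MET2 and -0.20 ± 0.093 for MET14 to 0.08 ± 0.087 for SAM1. The interaction, xrn1 minus wild type, passed for 7 of the 10, beside 20.3% of features: MET5 (0.89 ± 0.17), SAM1 (0.84 ± 0.12), SAM2 (0.82 ± 0.13), MET6 (0.74 ± 0.13), MET14 (0.62 ± 0.13), MET10 (0.54 ± 0.16) and MET3 (0.46 ± 0.14). For MET16 (0.46 ± 0.20), MET2 (0.36 ± 0.21) and MET28 (0.14 ± 0.31) it did not pass. The calls of MET3 and MET10 were lost when single libraries were left out, in 6 and 7 of 8 cases. After scaling to protein-coding genes MET5, SAM1, SAM2 and MET6 still passed, beside 13.1% of features, and after scaling to snoRNAs 0 of the 10 passed in limma, beside 0.181% upward, with 0 at an unadjusted p under 0.05.

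Between upf1 and wild type in glucose 2 of the 10 mRNAs passed upward, beside 32.0% of features. MET16 stood at 0.166 and 0.146 beside 0.119 and 0.117 in wild type (log2 change 0.39 ± 0.14, limma adjusted p = 0.0413), and SAM1 at 8.69 and 7.75 beside 6.67 and 6.86 (0.28 ± 0.087, limma adjusted p = 0.0210). Both calls were lost without either wild-type library or without the first upf1 library, and 0 of the 10 passed in limma after scaling to snoRNAs, beside 27.8% of features upward, with 1 at an unadjusted p under 0.05. The values of the other assimilation enzymes in upf1 were 0.740 and 0.630 for MET3, 0.959 and 0.904 for MET14, 0.784 and 0.642 for MET5 and 1.08 and 0.840 for MET10. MET2 stood at 0.249 and 0.194, MET6 at 21.6 and 18.4, SAM2 at 5.04 and 4.64 and MET28 at 0.0708 and 0.0557. With the replicate number as a block 4 of the 10 passed in glucose, MET16 and SAM1 with MET3 (limma adjusted p = 0.0496) and MET28 (limma adjusted p = 0.0308), both lower, beside 33.7% of features upward and 13.4% downward. On the protein-coding scale MET16 (0.31) and SAM1 (0.19) passed upward, beside 34.4% of features, and MET28 (-0.49), MET3 (-0.29), MET2 (-0.26) and MET5 (-0.26) downward, beside 24.4%.
In starvation SAM1 was higher in upf1, at 4.79 and 4.85 (0.27 ± 0.087, limma adjusted p = 0.0277), beside 19.1% of features, and MET3 was lower, at 0.432 and 0.419 (-0.34 ± 0.10, limma adjusted p = 0.0194), beside 15.9%. Each call was lost without any 1 of the 4 libraries, and SAM1 was at -0.19 after scaling to snoRNAs. On that scale 5 passed downward, beside 32.8% of features: MET3 (-0.81), MET28 (-0.74), MET5 (-0.69), MET2 (-0.69) and MET6 (-0.54). The snoRNA median of the second starved upf1 library was 14.8, beside 8.31 in the first and 6.0 to 9.83 in the other libraries. What this library does to the calls on the snoRNA scale was not tested. With scaling to protein-coding genes SAM1 (0.41), MET16 (0.37) and MET14 (0.23) passed upward, beside 30.5% of features, and MET3 downward (-0.21), beside 17.5%.
Starvation lowered 9 of the 10 within upf1, beside 50.8% of features. MET5 went from 0.784 and 0.642 to 0.334 and 0.372 (-1.0 ± 0.12) and MET6 from 21.6 and 18.4 to 10.2 and 10.4 (-0.96 ± 0.094). MET28 did not pass (-0.24 ± 0.22, limma adjusted p = 0.376). After scaling to protein-coding genes 4 fell, beside 17.9% of features: MET5 (-0.42), MET6 (-0.37), SAM2 (-0.36) and MET10 (-0.28). The starvation response itself differed from that of wild type for 0 of the 10 in limma, with 0 at an unadjusted p under 0.05, beside 0.0948% of features upward and 4.81% downward. The differences ran from -0.29 ± 0.16 for MET10 to 0.16 ± 0.13 for MET14. On the protein-coding scale MET14 passed upward (0.38), beside 2.59% of features. After scaling to snoRNAs all 10 differences were negative, 7 had an unadjusted p under 0.05, and MET6 passed downward (-0.82, limma adjusted p = 0.0415), beside 15.5% of features. These values too include the second starved upf1 library with its high snoRNA median.

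Ratios between members within a library do not depend on the scaling of libraries. The 4 pairs below, enzymes of neighbouring steps, subunits and paralogues, were picked after their values were seen, so the ratios are descriptions with no test. MET14 over MET3, the kinase over the sulfurylase before it, was 1.01 to 1.29 in the 4 wild-type libraries without the drug, 2.63 to 2.95 in the 4 xrn1 libraries, 1.30 to 1.43 in upf1 and 0.900 to 1.27 with cycloheximide. MET14 over MET16, the reductase after it, was 6.60 to 8.61 in wild type, 11.7 to 13.1 in xrn1, 5.78 to 6.19 in upf1 and 3.98 to 7.29 with cycloheximide. The xrn1 libraries lay above all other libraries in both ratios.
MET10 over MET5, the subunits of 1 enzyme, was 1.01 and 1.04 in wild type in glucose, 1.37 and 1.30 in starvation, 1.30 and 1.35 with cycloheximide in glucose and 0.997 and 1.15 with cycloheximide in starvation. It was 1.38 and 1.31 in upf1 in glucose, 1.58 and 1.41 in starved upf1, and 1.75 to 1.82 in the 4 xrn1 libraries. Xrn1-deficient libraries were thus the highest, and the subunit mRNAs did not keep 1 ratio across groups. SAM1 over SAM2 was 1.49 to 1.66 in wild type, 1.67 to 1.94 in upf1, 1.70 to 1.84 in xrn1, 1.13 and 1.17 with cycloheximide in glucose and 1.60 and 1.86 with cycloheximide in starvation. The lowest ratios of SAM1 to SAM2 came from the cycloheximide libraries in glucose.

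**Figure D4:**
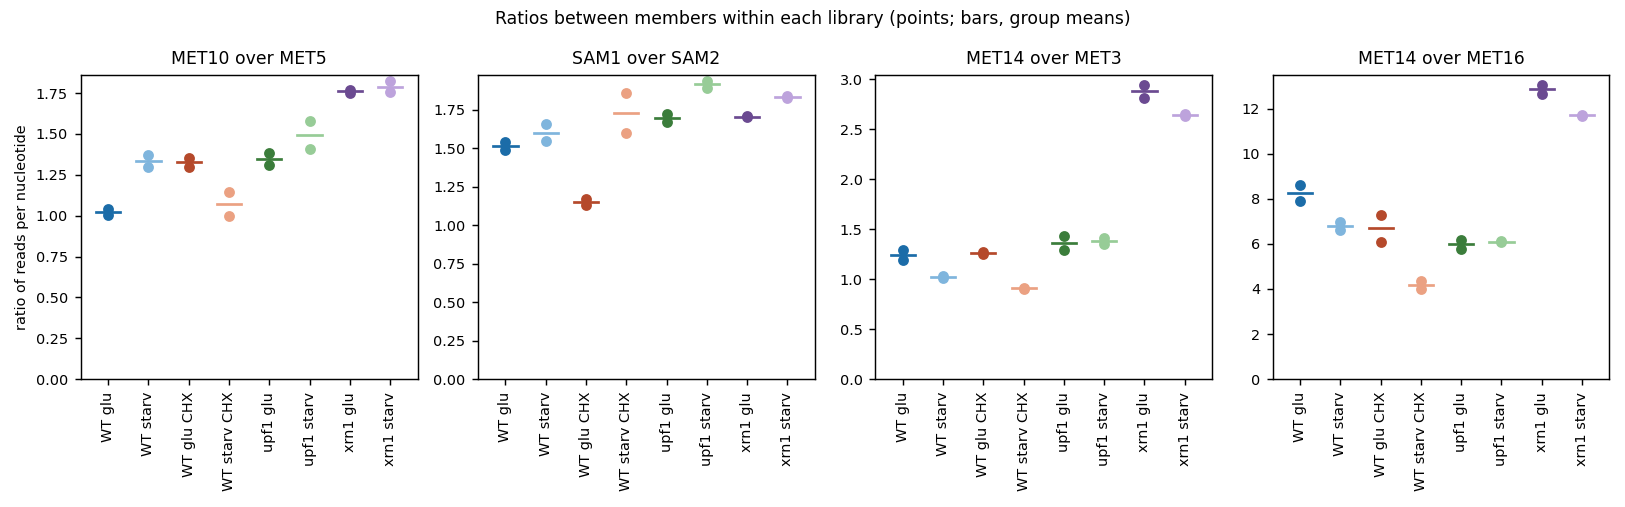
Ratio of reads per nucleotide between members within each library (points) and its group mean (bars), on axes that start at 0. In both MET14 panels the xrn1 libraries stand apart (2.63 to 2.95 for MET14 over MET3), and SAM1 over SAM2 is lowest with cycloheximide in glucose (1.13 and 1.17).

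Another 37 genes of sulfur metabolism, listed by role, were set beside the 10. Their single changes in the text are as deposited, and on the protein-coding scale only counts are given, for some comparisons. In wild-type starvation 28 of the 37 fell and 1 rose, as deposited, beside 33.5% and 10% of features. The riser was SOA1, an importer of organic sulfur compounds, from 0.0397 and 0.0381 to 0.0487 and 0.0514 reads per nucleotide (log2 change 0.34 ± 0.12, limma adjusted p = 0.0440). MUP1, the high-affinity methionine permease, fell from 2.92 and 3.0 to 1.31 and 1.40 (-1.13 ± 0.095). All 4 genes of the methyl cycle and salvage group fell, with a median of -0.95, among them SAH1, the hydrolase of S-adenosylhomocysteine (-1.02 ± 0.081), and ADO1, adenosine kinase (-0.97 ± 0.082).
With cycloheximide in glucose all 37 rose, beside 91.3% of features, and SAH1 (0.38 ± 0.081), HOM6 (0.60 ± 0.075) and CYS3 (0.66 ± 0.092), enzymes of the methyl cycle, of homoserine synthesis and of cysteine synthesis, rose least relative to the median gene. With the drug in starvation 26 rose and 10 fell, beside 65.8% and 8.32%. SAH1 went from 8.14 and 8.49 to 2.85 and 2.95 (-1.52 ± 0.081), and ADO1 (-1.01 ± 0.082), SAM4, a homocysteine methyltransferase (-0.89 ± 0.084), and HOM2 (-0.57 ± 0.086) fell as well. In starvation under the drug 35 fell, with SAH1 at -2.92, MUP1 at -2.83, SAM4 at -2.80 and ADO1 at -2.65, values beside those of SAM2, and 1 rose, beside 73.7% downward and 6.99% upward. The riser there was MUP3, a low-affinity methionine permease, from 0.555 and 0.413 to 0.678 and 0.661 (0.48 ± 0.13, limma adjusted p = 0.0035).
In xrn1 36 of the 37 rose in each medium, beside 90.6% of features in glucose and 93.1% in starvation, and PDC6, a pyruvate decarboxylase isozyme that is low in sulfur amino acids, did not pass (0.04 ± 0.18 in glucose). MET1, which makes the siroheme cofactor of sulfite reductase, rose from 0.114 and 0.129 to 1.63 and 1.52 in glucose (3.66 ± 0.13), BDS1, an alkyl sulfatase, by 3.72 ± 0.14 and MUP3 by 3.51 ± 0.13. ADO1 (0.25 ± 0.082), SAH1 (0.26 ± 0.081) and HOM6 (0.36 ± 0.075) rose least. In upf1 in glucose 6 rose and 10 fell, beside 32.0% and 9.97%. BDS1 stood at 0.397 and 0.327 beside 0.0792 and 0.0771 (2.15 ± 0.14), MET1 at 0.305 and 0.251 beside 0.114 and 0.129 (1.17 ± 0.13) and SOA1 at 0.0965 and 0.0816 (1.12 ± 0.12). In upf1 in starvation 2 rose, BDS1 (1.61 ± 0.14) and MET1 (1.03 ± 0.13), and 10 fell, beside 19.1% and 15.9%. In the interactions of the starvation response 28 fell and 1 rose with cycloheximide, beside 61.0% and 2.06% of features. With upf1 1 fell (SOA1, -1.05 ± 0.18, limma adjusted p = 0.0057), beside 4.81%, and with xrn1 19 rose, beside 20.3%.
On the protein-coding scale 5 of the 37 rose and 20 fell in wild-type starvation, beside 25.1% and 23.6% of features. The counts were 6 and 24 with cycloheximide in glucose, beside 32.0% and 25.2%, and 8 and 19 with it in starvation, beside 31.1% and 31.9%. In xrn1 in glucose they were 9 and 17, beside 37.5% and 25.3%.
Among the mRNAs of the regulators, as deposited, MET4 fell in wild-type starvation (-0.62), as did CBF1 (-0.51), MET32 (-0.79) and MET30 (-0.61), while MET31 did not pass (-0.30, limma adjusted p = 0.0860). Of all features 33.5% fell there, and the median protein-coding gene changed by -0.42. With cycloheximide in glucose MET4 rose by 1.96, CBF1 by 2.49, MET31 by 2.22, MET30 by 2.38 and MET32 by 1.11. In that comparison 91.3% of features rose, and the median protein-coding gene rose by 2.05. In xrn1 in glucose these 5 mRNAs rose by 2.53, 2.17, 2.21, 1.99 and 1.91 in the same order, beside 90.6% of features and a protein-coding median of 2.06. In upf1 none of these 5 passed in limma in either medium, and their log2 changes in glucose ran from -0.36 for MET32 to 0.20 for CBF1. Of all features 32.0% passed upward and 9.97% downward in glucose, and 19.1% and 15.9% in starvation. GCN4, the activator of amino acid synthesis genes, named after its value was seen, passed upward in upf1 in glucose, at 5.57 and 4.95 beside 4.40 and 4.48 (0.24 ± 0.078, limma adjusted p = 0.0245), and did not pass in starvation (0.037, limma adjusted p = 0.746). The Cbf1 core CACGTG lay before 9 of the 37 genes and the Met31 and Met32 core AACTGTGG before 8 of them.

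**Figure D5:**
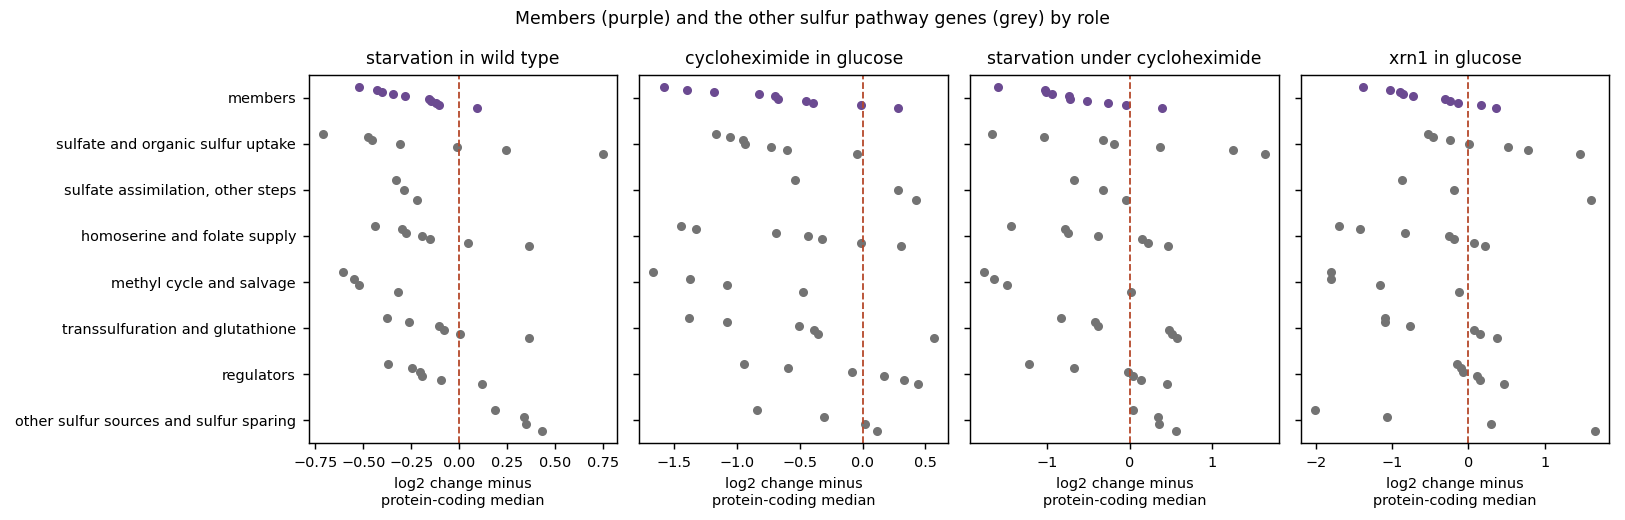
Log2 change minus the median change of all protein-coding genes (dashed line, 0) for the 10 members (purple) and the 37 other sulfur genes (grey) by role, in 4 comparisons, each with its own axis. The methyl cycle and salvage genes lie at or left of the line in 3 panels with the low end of the members, as SAH1 does at -1.67 for cycloheximide in glucose, and the regulators lie on both sides of it.

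Across the 8 group means, each taken relative to the median protein-coding gene, the 10 did not follow 1 pattern. The highest Pearson correlation among them was that of MET10 and SAM2 (0.990), followed by SAM1 and SAM2 (0.973) and MET10 and SAM1 (0.958). The lowest were those of MET28 with MET10 (-0.741), SAM2 (-0.685) and SAM1 (-0.671). MET28 was negatively correlated with 8 of the other 9, all but MET2 (0.0263). These are descriptions over 8 points that share libraries and scaling. Among 5814 genes compared, the profile most like that of MET3 was ADE6 (0.995), of MET14 YJL118W (0.984), of MET16 ARP4 (0.995), of MET5 ARF1 (0.998), of MET2 UBA2 (0.985), of MET6 LYS9 (0.996), of MET28 RML2 (0.953), of SAM1 YFR018C (0.989) and of SAM2 ASP1 (0.998). The genes in second place were VMA2 (0.993), GRX8 (0.975), FMP41 (0.994), ADK1 (0.997), BOI2 (0.980), ARG1 (0.994), MHR1 (0.953), YBR072C-A (0.988) and TAD2 (0.991) in the same order. For MET10 the first was SAM2, a member itself, and the second was FSH1 (0.990). Among the first and second places, MET10 with SAM2 was the pairing of 2 members.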

How the data were processed

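Strand-specific total RNA-seq of 16 libraries in 8 groups of 2 was analysed. The authors deposited a coverage signal, in reads per nucleotide, for 12089 features (92 spike-ins). A further 8 columns hold group means (largest difference 5.23e-12) and were left out. The submitters' processing notes name DESeq2, featureCounts 2.0.0, HISAT2 2.2.0, Trim Galore and build R64, with no roles. The scaling of libraries is not stated there. Per the labels' protocols, RNA was extracted with hot phenol, mixed with ERCC spike-ins, depleted of ribosomal RNA and made into stranded libraries. Recovered reads were not whole for most member values (33 within 0.1 of a whole number), so no count test was run.

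log2(value + 0.00369), the pseudocount being the 5th percentile of positive values, was fitted with limma 3.58.1 in R 4.3.3 (1 mean per group, 16 libraries, trend, 8 residual and 4.43 prior degrees of freedom). Features with a mean at or above the pseudocount were tested (11599), in 13 comparisons. A feature passed at a Benjamini-Hochberg adjusted p under 0.05 over all features tested. Changes are on the log2(value + pseudocount) scale, which understates changes of low genes, and are given ± SE. The code was tested on simulated data. Values after scaling to protein-coding genes come from the same fit on 11484 features. Alternatives were scaling to protein-coding genes, snoRNAs or spike-ins, other pseudocounts and filters, the compared groups alone, a replicate block and leaving out each library.

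The members and lists were chosen with earlier results of these data known. All 10 members are named; of the 37 other sulfur genes, at most the 4 with the largest passing change relative to the protein-coding median per comparison (a gene so named may be given in other comparisons too), with MET4, CBF1, MET31, MET32 and MET30, and PDC6 and GCN4, named after their values were seen. The 2 genes most like each member were named. Deciles of genes by level were set after the data were seen, from the mean over all 16 libraries and not from wild type in glucose. Other steps used Python 3.11.15, numpy 2.4.6, pandas 2.3.3 and matplotlib 3.10.9.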

Additional observations from a re-analysis of the deposited data

Results flagged for a closer look

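The starvation response of 9 of the 10 genes differed between wild-type cells with cycloheximide and with DMSO, by the interaction in limma. The difference in log2 change, drug minus mock, was -1.91 for SAM2, -1.62 for MET10, -1.41 for SAM1, -1.39 for MET6, -1.10 for MET2, -1.07 for MET14, -0.93 for MET5, -0.88 for MET3 and -0.68 for MET16. Of all features 61.0% passed in that direction, and the drug libraries carry their own header prefix.

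The starvation response of 7 of the 10 differed between xrn1 and wild type. The difference, xrn1 minus wild type, was 0.89 for MET5, 0.84 for SAM1, 0.82 for SAM2, 0.74 for MET6, 0.62 for MET14, 0.54 for MET10 and 0.46 for MET3, while 20.3% of features passed in that direction. Scaled to protein-coding genes 4 of these passed, and scaled to snoRNAs none of the 10 passed, with 0 at an unadjusted p under 0.05. What sets these differences was not tested.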

How the results depend on the processing

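Pseudocounts, filters and a fit of the compared groups alone left the counts of passing members as they were or within 1.5 times, except for upf1 in glucose. There 1 of the 10 passed with a pseudocount 10 times larger and 1 with the compared groups alone, in place of 2. Spike-in scaling left the counts as they were, but its factor was 1 in every library, so it could not move them and is no check. Scaled to protein-coding genes the counts were 6 for upf1 in glucose, 4 for upf1 in starvation, 6 for xrn1 in starvation, 4 for starvation in upf1, 1 for the difference in starvation response in upf1 and 4 for the difference in starvation response in xrn1. Scaled to snoRNAs they were 0 for starvation in wild type, 0 for upf1 in glucose, 5 for upf1 in starvation, 1 for the difference in starvation response in upf1 and 0 for the difference in starvation response in xrn1. The second starved upf1 library had the highest snoRNA scaling factor, 1.40, beside 0.994 in the first. The cause was not tested. Without 1 library at a time the counts ran from 10 to 10 for cycloheximide in glucose, 7 to 9 for cycloheximide in starvation, 9 to 9 for starvation in upf1, 8 to 9 for starvation in wild type, 0 to 0 for starvation in xrn1, 9 to 10 for the difference in starvation response with cycloheximide, 0 to 0 for the difference in starvation response in upf1, 5 to 7 for the difference in starvation response in xrn1, 9 to 10 for starvation under cycloheximide, 0 to 4 for upf1 in glucose, 0 to 0 for upf1 in starvation, 10 to 10 for xrn1 in glucose and 10 to 10 for xrn1 in starvation.

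Same-numbered replicates did not meet the measure of pairing in all pairs of groups: over 28 pairs the correlation of their deviations was -0.0592 to 0.227, above 0.1 in 6, and 5 of these lay among the 6 pairs of the mutant groups (0.131 to 0.227). The replicate block gave 4 passing members for upf1 in glucose in place of 2 and moved no other count by over 1.5 times.

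Scaling to protein-coding genes turned the sign of 44 log2 changes, which then had these values. Starvation in wild type turned for MET28 (0.019). Cycloheximide in glucose turned for MET3 (-0.68), MET14 (-0.66), MET16 (-0.34), MET5 (-0.80), MET10 (-0.43), MET6 (-1.38), SAM1 (-1.57) and SAM2 (-1.17). Cycloheximide in starvation turned for MET3 (-0.78), MET14 (-0.94), MET16 (-0.24), MET5 (-0.95) and MET2 (-0.0054). Starvation under cycloheximide turned for MET28 (0.36). Xrn1 in glucose turned for MET3 (-0.86), MET16 (-0.28), MET5 (-1.03), MET10 (-0.25), MET2 (-0.13), MET6 (-1.40), SAM1 (-0.74) and SAM2 (-0.91). Upf1 in starvation turned for MET10 (0.064) and MET6 (0.060). Xrn1 in starvation turned for MET3 (-0.77), MET16 (-0.18), MET5 (-0.50), MET10 (-0.083), MET2 (-0.13), MET6 (-1.03), MET28 (-0.017), SAM1 (-0.27) and SAM2 (-0.47). Starvation in upf1 turned for MET28 (0.32). The difference in starvation response with cycloheximide turned for MET16 (0.10) and MET28 (0.34). The difference in starvation response in upf1 turned for MET3 (0.080), MET16 (0.065), MET5 (0.16), MET2 (0.16), SAM1 (0.22) and SAM2 (0.12). The difference in starvation response in xrn1 turned for MET28 (-0.21). Scaling to snoRNAs turned 16. Starvation in wild type turned for MET28 (0.057). Cycloheximide in starvation turned for MET10 (0.19). Upf1 in glucose turned for MET14 (0.028). Upf1 in starvation turned for MET14 (-0.37), MET16 (-0.22), SAM1 (-0.19) and SAM2 (-0.45). Starvation in xrn1 turned for MET6 (-0.12) and SAM1 (-0.076). The difference in starvation response in upf1 turned for MET14 (-0.40) and MET28 (-0.44). The difference in starvation response in xrn1 turned for MET3 (-0.090), MET16 (-0.079), MET10 (-0.017), MET2 (-0.19) and MET28 (-0.40). Leaving out 1 library turned changes near 0, none of which passed. Cycloheximide in starvation ranged from -0.055 to 0.0070 for MET10. Starvation in xrn1 ranged from -0.14 to 0.086 for MET10, -0.14 to 0.014 for MET16, -0.16 to 0.058 for MET5, -0.062 to 0.13 for MET6, -0.023 to 0.18 for SAM1 and -0.13 to 0.076 for SAM2. The difference in starvation response in upf1 ranged from -0.23 to 0.12 for MET2, -0.11 to 0.29 for MET28, -0.20 to 0.085 for MET5 and -0.086 to 0.079 for SAM1. Upf1 in starvation ranged from -0.026 to 0.055 for SAM2.

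Precision is limited by 2 libraries per group and, for MET28, by its low level, with reads roughly estimated at 93.6 to 473.9 a library. Scaled to snoRNAs all 10 stayed up for cycloheximide in glucose, xrn1 in glucose and xrn1 in starvation (medians 1.69, 1.61 and 1.72), and cycloheximide in starvation gave 6 up and 3 down, while scaling to protein-coding genes turned most of the rises.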
